A study of Mus musculus with 28 samples.

Results

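The gene set is made of 44 genes of DNA replication and mitosis, taken by symbol from the authors' deposited table of probe sets, and 43 of them had a named probe set among the 14122 genes tested. They comprised 23 measured replication genes of 24 listed, the 2 cyclin E genes CCNE1 and CCNE2, and 18 mitotic genes. CHAF1A was not analysed here. Where a gene had several probe sets, the brightest one on average was used. Symbols are mouse genes written in capitals, as in that table.

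The study read RNA on Affymetrix arrays, from both ends of the large intestine (proximal and distal colon). The mice were female C57BL/6J. To induce tumours, the colon carcinogen azoxymethane (AOM) was injected once into the peritoneum at 10 mg per kg. After 96 hours the mice drank 2.5% dextran sulfate sodium (DSS), which damages the epithelium of the colon, for 5 days and then water for 14 days. Early mice went through 2 such cycles and were killed on day 42, and late mice went through 4 and were killed on day 120. Untreated mice served as controls, and the labels state no age. There were 6 untreated proximal, 6 untreated distal, 3 early proximal, 3 early distal, 4 late proximal and 6 late distal arrays. By the labels, late distal colon held dysplasia and intramucosal carcinoma, early mice had areas of dysplasia, and proximal colon held no lesion. The labels name each array a biological replicate and do not say which regions came from the same mouse.

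In the colon, cell division takes place in the lower part of the crypts, and cells stop dividing as they move up and mature. Before S phase the MCM helicase is loaded onto origins by CDC6 and CDT1. GINS and MCM10 help to start the helicase, and polymerases, the PCNA clamp and its RFC loader then copy the DNA. In mitosis CDK1 with its cyclins, the Aurora and Polo-like kinases, the spindle checkpoint and motor proteins separate the chromosomes. Many replication genes are bound by E2F factors, and many mitotic genes carry a CHR element, with nearby CCAAT boxes, that binds the DREAM and MuvB complexes. In bulk tissue such as this, fewer dividing cells and less of a transcript per cell cannot be told apart.

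Some arrays did not match the region of their label. HOXB13 and HOXD13, which mark the distal colon, read 12.69 and 11.37 log2 units in untreated proximal 1, within the range of the other distal arrays. In untreated distal 3 they read 5.36 and 3.44, near the levels of the proximal arrays. HOXB13 lay between the regions in late proximal 3 (8.94) and late proximal 4 (8.57). Pancreatic enzyme transcripts were high in 6 arrays, namely untreated proximal 1, untreated distal 1, early distal 3 and late distal 2, 3 and 5. The median level of an array was 6.608 to 6.799 log2 units. Precision is limited by how many arrays a group had. Results that rest on these arrays are given with and without them.

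RefSeq promoter windows of build GRCm38.p6, each from 250 bases before to 50 bases after the annotated transcription start, were found for 34 of the 44 genes. An E2F site (TTTCCCGC, TTTCGCGC, TTTGCCGC or TTTGGCGC, either strand) was in the windows of 8 of 19 replication genes, 1 of 14 mitotic genes and 2.6% of all 27025 genes with a window. A CHR element (TTTGAA or TTCGAA, either strand) was in 3 of 19 replication genes, 11 of 14 mitotic genes and 21.7% of all genes. The third motif, CCAAT, was in 13 of 19 replication genes, 12 of 14 mitotic genes and 41.1% of all genes. CCNE1 held none of the 3 motifs in its window. The 3 replication promoters below are shown for their E2F sites, in capitals, for the genes CDC6 (chr11:98907901-98908200, plus strand), MCM7 (chr5:138171834-138172133, minus strand) and POLA1 (chrX:93632106-93632405, minus strand). MCM7 had another window, not shown, that held no E2F site and no CHR element. CDC6 and MCM7 rose in late distal colon, while POLA1 differed there by 0.08 log2 units and did not pass the test.
CDC6: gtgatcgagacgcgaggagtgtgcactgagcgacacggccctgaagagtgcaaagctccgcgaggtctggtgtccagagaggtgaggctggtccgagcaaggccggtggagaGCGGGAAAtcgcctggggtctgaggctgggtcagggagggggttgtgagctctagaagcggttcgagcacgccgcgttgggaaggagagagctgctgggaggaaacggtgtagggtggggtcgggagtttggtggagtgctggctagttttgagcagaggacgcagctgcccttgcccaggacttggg
MCM7: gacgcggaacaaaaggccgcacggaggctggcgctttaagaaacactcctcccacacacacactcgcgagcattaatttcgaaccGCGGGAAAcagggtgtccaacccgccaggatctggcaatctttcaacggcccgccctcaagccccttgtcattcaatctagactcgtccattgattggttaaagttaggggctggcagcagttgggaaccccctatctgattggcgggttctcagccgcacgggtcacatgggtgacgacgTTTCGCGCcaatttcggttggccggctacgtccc
POLA1: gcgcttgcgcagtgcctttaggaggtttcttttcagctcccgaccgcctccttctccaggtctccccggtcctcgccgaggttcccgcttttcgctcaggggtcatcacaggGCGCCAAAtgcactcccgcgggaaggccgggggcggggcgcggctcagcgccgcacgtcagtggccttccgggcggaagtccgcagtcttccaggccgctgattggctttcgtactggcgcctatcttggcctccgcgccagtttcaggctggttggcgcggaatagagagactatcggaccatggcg

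The 3 mitotic promoters are shown for their CHR elements, in capitals, for CDK1 (chr10:69352863-69353162, minus strand), AURKA (chr2:172370521-172370820, minus strand) and KIF11 (chr19:37376132-37376431, plus strand). CDK1 and AURKA rose in late distal colon, and KIF11, which carries the element on the other strand at -19 from the start, differed there by 0.04 log2 units. A match is only a run of letters in the window and shows no binding.
CDK1: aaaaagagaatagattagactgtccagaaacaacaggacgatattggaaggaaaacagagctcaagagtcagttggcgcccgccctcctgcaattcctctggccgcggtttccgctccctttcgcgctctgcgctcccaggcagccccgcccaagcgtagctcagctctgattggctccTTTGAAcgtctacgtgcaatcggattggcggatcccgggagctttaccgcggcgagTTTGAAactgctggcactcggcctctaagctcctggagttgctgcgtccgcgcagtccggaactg
AURKA: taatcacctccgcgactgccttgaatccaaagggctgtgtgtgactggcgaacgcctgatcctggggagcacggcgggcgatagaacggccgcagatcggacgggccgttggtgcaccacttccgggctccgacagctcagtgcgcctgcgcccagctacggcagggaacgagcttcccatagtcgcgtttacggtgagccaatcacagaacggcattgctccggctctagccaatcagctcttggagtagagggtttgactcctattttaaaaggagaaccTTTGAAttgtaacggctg
KIF11: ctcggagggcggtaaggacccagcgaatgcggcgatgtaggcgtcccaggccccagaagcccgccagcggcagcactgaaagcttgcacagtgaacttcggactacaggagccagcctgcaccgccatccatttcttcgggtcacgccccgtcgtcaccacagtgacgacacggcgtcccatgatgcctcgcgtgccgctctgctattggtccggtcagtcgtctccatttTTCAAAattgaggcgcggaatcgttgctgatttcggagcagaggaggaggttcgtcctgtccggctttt

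Replication genes were higher in the distal colon of late mice than in untreated distal colon. Of the 23, 18 rose at an adjusted p under 0.05 in limma, the threshold used throughout and adjusted over all genes, and none fell, against 26.0% of all tested genes called higher. Their median log2 difference was 0.65, with all 23 above 0, and the median of all tested genes was 0.004. Mitotic genes were also higher, with 11 of 18 called and a median of 0.47. CCNE1 rose and CCNE2 was not called. Over the 43 genes the difference ran from 0.04 for KIF11 to 1.35 for GINS1.

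**Figure D1:**
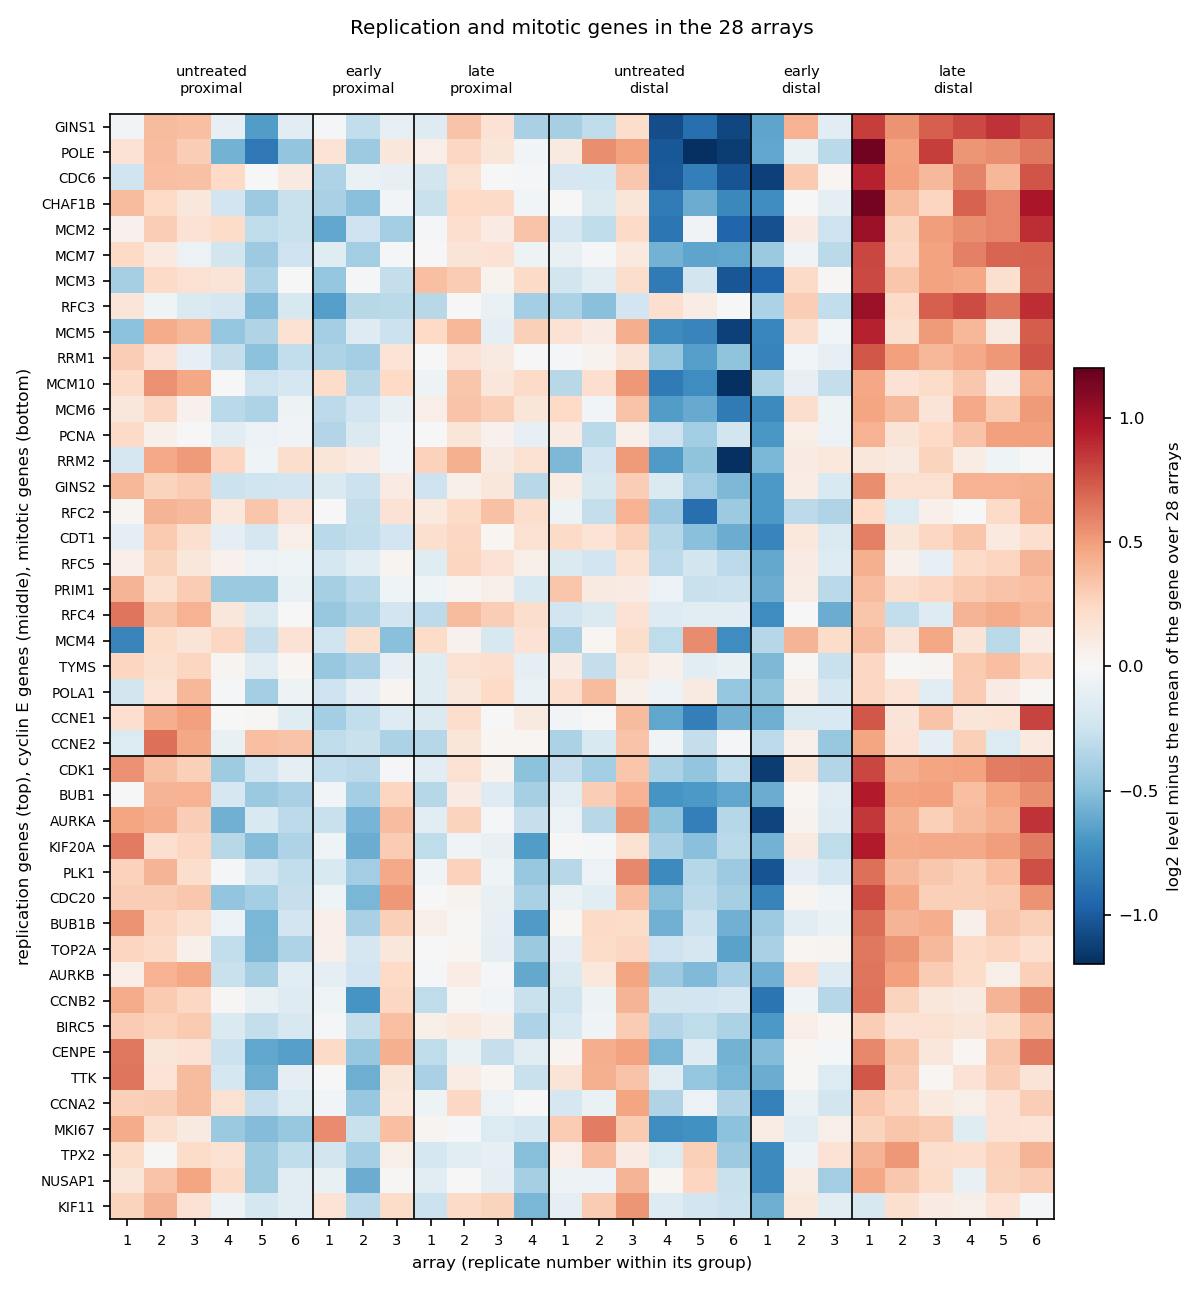
Heat map of the 43 genes in the 28 arrays, as the log2 level minus the mean of the gene over all arrays, with values past the ends of the scale in the end colour. Within each class, genes run from the largest to the smallest late distal difference. The late distal columns are red for most genes, and untreated distal 4 to 6 and early distal 1 are the bluest columns.

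Among the factors that load and start the helicase, GINS1, a GINS subunit, had the largest rise. Its level in untreated distal colon ran from 7.78 to 9.08 log2 units with a median of 8.21, and in late distal colon from 9.41 to 9.74 with a median of 9.66. The groups did not overlap, and the difference was 1.35 ± 0.21 log2 units (SE), or 2.55-fold (limma, adjusted p = 1.02e-05). MCM7, a helicase subunit, ran from 10.36 to 11.11 (median 10.67) in untreated and from 11.24 to 11.79 (median 11.64) in late distal colon. Every late array lay above every untreated one, and the difference was 0.89 ± 0.14 (adjusted p = 1.49e-05). MCM2 rose by 0.99 ± 0.19 and CDC6, which loads the helicase, by 1.09 ± 0.21, and neither overlapped with its untreated group. CDC6 read 6.85 to 8.21 in untreated and 8.28 to 8.81 in late distal colon.

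The remaining helicase genes rose by 0.87 (MCM3), 0.81 (MCM5), 0.70 (MCM10) and 0.65 (MCM6) log2 units. MCM4, another subunit of the same ring, was not called: it ran from 9.84 to 11.15 (median 10.45) in untreated and from 10.26 to 11.05 (median 10.74) in late distal colon. The difference of 0.26 ± 0.20 had a 95% interval from -0.16 to 0.68. The other MCM4 probe set, nearly as bright on average (10.33 against 10.58), differed by 0.65, without a test of its own. MCM10 was called although its groups overlapped, with 6.67 to 8.50 in untreated and 8.08 to 8.44 in late distal colon. GINS2 rose by 0.52 and CDT1 by 0.40.

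Of the genes that copy DNA, POLE, the catalytic subunit of the leading strand polymerase, rose by 1.10 ± 0.28 log2 units (limma, adjusted p = 0.00245). Its untreated distal arrays were spread widely, from 6.52 to 8.48 with a median of 7.46, and its late distal arrays ran from 8.40 to 9.08. POLA1 and PRIM1, catalytic subunits of the polymerase and primase that begin each strand, were not called, at 0.08 and 0.32. RFC3, a clamp loader subunit, ran from 8.13 to 8.83 in untreated and from 8.86 to 9.67 in late distal colon, with no overlap and a difference of 0.85 ± 0.15 (adjusted p = 5e-05). The other clamp loader genes differed less, with RFC2 at 0.41, RFC5 at 0.39 and RFC4, not called, at 0.30. PCNA, the clamp itself, rose by 0.53 ± 0.12, from 11.65 to 12.17 in untreated to 12.23 to 12.56 in late distal colon.

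RRM1 and RRM2 encode the large and the small subunit of ribonucleotide reductase, which makes deoxynucleotides. RRM1 rose by 0.80 ± 0.16 log2 units with no overlap between the groups. RRM2 rose by 0.53 ± 0.19, but its untreated distal arrays reached from 10.43 to 12.16 and enclosed all late distal arrays, which lay between 11.60 and 11.92. The 12.16 was untreated distal 3, whose Hox levels were those of proximal colon. The other untreated distal arrays ran from 10.43 to 11.42, below all late distal arrays. TYMS, thymidylate synthase, was not called, at 0.24. CHAF1B, a chaperone subunit that places histones on new DNA, rose by 1.05 ± 0.19 (adjusted p = 8.24e-05), from 7.30 to 8.29 in untreated to 8.40 to 9.29 in late distal colon. CCNE1, the cyclin that drives entry into S phase with CDK2, rose by 0.67 ± 0.17 (adjusted p = 0.00254), and CCNE2 differed by 0.23 ± 0.15.

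Among mitotic genes, CDK1, the kinase that triggers mitosis, ran from 9.74 to 10.55 (median 9.88) in untreated and from 10.65 to 11.02 (median 10.76) in late distal colon. The groups did not overlap, and the difference was 0.82 ± 0.19 log2 units (limma, adjusted p = 0.000741). Its cyclins differed less, by 0.45 for CCNB2 (called) and 0.31 for CCNA2 (adjusted p = 0.0881). The other CCNA2 probe set, dimmer on average (10.18 against 10.96), differed by 0.52, without a test of its own. AURKA and PLK1, kinases of spindle assembly and mitotic entry, rose by 0.79 and 0.70. AURKB and BIRC5, of the chromosomal passenger complex, rose by 0.49 and 0.39.

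Of the spindle checkpoint genes, BUB1 rose by 0.79 ± 0.20 and BUB1B by 0.52 ± 0.18 log2 units, and TTK, at 0.32, was not called. CDC20, the target of that checkpoint, rose by 0.62. KIF20A, a kinesin of cytokinesis, ran from 7.99 to 8.68 in untreated and from 8.94 to 9.45 in late distal colon, with no overlap and a difference of 0.75 ± 0.19. The other motor and spindle genes KIF11, CENPE, TPX2 and NUSAP1 were not called, with differences from 0.04 to 0.39. Their dimmer probe sets differed by 0.19 and 0.21 (KIF11), 0.13 (CENPE), 0.92 (TPX2) and -0.13 (NUSAP1), without tests of their own. KIF11, the motor that pushes the spindle poles apart, had a 95% interval from -0.30 to 0.37. TOP2A, which untangles chromosomes, rose by 0.50.

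MKI67, whose protein Ki-67 is the usual stain for dividing cells, was not called. It ran from 10.80 to 12.16 (median 11.46) in untreated and from 11.40 to 11.88 (median 11.77) in late distal colon. The late arrays lay within the untreated range, and the difference was 0.31 ± 0.21 log2 units (limma, adjusted p = 0.241).

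Every late distal array lay above every untreated distal array for 8 of 23 replication genes, 2 of 18 mitotic genes and 14.0% of all tested genes. Those were MCM2, MCM7, CDC6, GINS1, PCNA, RRM1, RFC3 and CHAF1B, with CDK1 and KIF20A. For MCM7, CDC6, GINS1, RRM1 and RFC3 every late distal array also lay above all 12 untreated arrays of both regions, which held for no mitotic gene and for 10.5% of all tested genes. The count of mitotic genes rested partly on a few arrays: it was 7 without late distal 1, 6 without the arrays with pancreatic transcripts, and 7 with each array centred on its median.

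**Figure D2:**
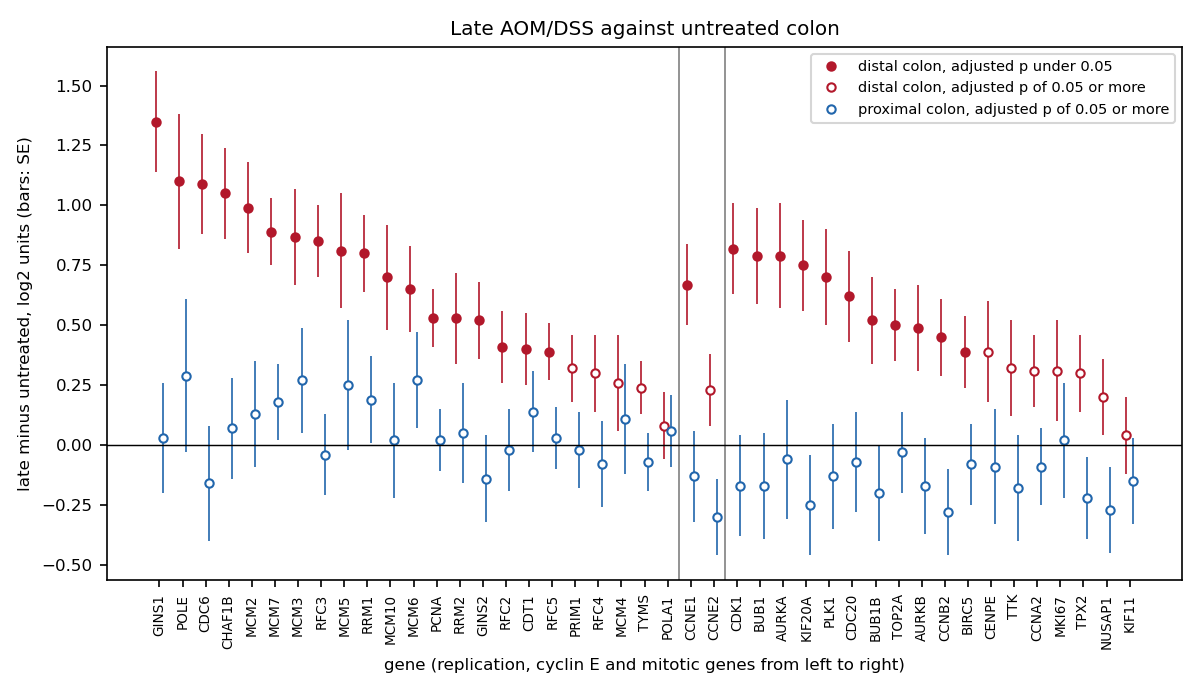
Late minus untreated log2 difference with its SE for each gene, in distal (red) and proximal (blue) colon, filled where the adjusted p was under 0.05. Distal differences run from 0.04 to 1.35 and proximal ones from -0.30 to 0.29.

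Genes of the same processes outside the list were also mostly higher. Of 36 other replication genes 25 were higher and 1 lower, with a median of 0.45, and of 41 other mitosis genes 22 were higher and none lower, with a median of 0.45. Of all tested genes 26.0% were called higher and 22.5% lower. DBF4, which activates the kinase that fires origins, rose by 0.74 ± 0.17 log2 units, and MAD2L1, of the spindle checkpoint, by 1.00 ± 0.19. The 1 lower gene was SLBP, which binds histone mRNA, at -0.59 ± 0.22 (named after its value was seen). Markers of other cell states moved in the same arrays. The mean level of crypt stem and progenitor markers ran from 9.98 to 10.35 in late distal colon and from 8.73 to 9.07 in untreated distal colon, with 8 of 9 called higher. Absorptive colonocyte markers were lower in 8 of 9, with means from 10.96 to 12.24 and from 12.68 to 12.78. T cell markers were higher in 8 of 8, with means of 7.48 to 7.91 against 5.70 to 7.42, and neutrophil markers in 4 of 4, with 9.31 to 10.47 against 4.29 to 5.72. Macrophage markers were higher in 6 of 8 and lower in 1 (CD163), with means of 9.78 to 10.00 against 8.08 to 9.79, and B cell markers were higher in 3 of 6, with 7.79 to 8.52 against 4.30 to 7.54. Smooth muscle markers were lower in 6 of 7, with means of 11.53 to 12.27 against 12.21 to 12.51. Epithelial markers were lower in 3 of 5 and higher in 1, with 11.43 to 11.80 against 11.77 to 12.20. Their part in the differences of the replication and mitotic genes was not tested.

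Early distal colon, by contrast with late, gave no call. In limma 0 of 23 replication, 0 of 2 cyclin E and 0 of 18 mitotic genes were called against untreated distal colon, and 0, 0 and 1 had an unadjusted p under 0.05, while 11.3% of all tested genes were called. The medians were 0.01 and -0.13. The early distal arrays were far apart: MCM2 read 8.30, 9.45 and 9.10 log2 units in replicates 1 to 3, CDC6 read 6.77, 8.20 and 7.91, and CDK1 read 9.08, 10.36 and 9.86. Early distal 1 was the lowest of the 3 in each case and below the lowest untreated array. T cell, B cell and neutrophil markers were called higher in early distal colon in 8 of 8, 6 of 6 and 4 of 4 genes, and macrophage markers in 6 of 8. Their part in these values was not tested.

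Late distal colon exceeded early distal colon for 17 of 23 replication genes, CCNE1 and 10 of 18 mitotic genes, against 15.4% of all tested genes called higher. The medians were 0.63 and 0.58. MCM2 differed by 1.04 ± 0.24 log2 units (limma, adjusted p = 0.0026) and CDK1 by 1.02 ± 0.23 (adjusted p = 0.00214). MCM4 and MKI67 differed by 0.06 and 0.17 and were not called. These counts rested on early distal 1: without it they were 3 and 0. Without late distal 1 the mitotic count was 6.

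In the proximal colon no replication or mitotic gene of the list was called in any comparison of treatments. Late proximal colon differed from untreated proximal colon by a median of 0.05 log2 units in replication genes, 16 of 23 above 0, and of -0.16 in mitotic genes, 1 of 18 above 0. In limma 0 of the 43 genes were called and 0 had an unadjusted p under 0.05, and 0.0212% of all tested genes were called. GINS1 read 8.84, 9.25, 9.23, 8.77, 8.20 and 8.73 in untreated and 8.71, 9.21, 9.04 and 8.48 in late proximal colon, so that the groups overlapped. Its difference was 0.03 ± 0.23, with a 95% interval from -0.45 to 0.50. CCNB2 differed by -0.28 ± 0.18 and CCNE2 by -0.30 ± 0.16, neither called. The signs depended on the untreated arrays chosen. Against untreated proximal 1 to 3 alone the replication and mitotic medians were -0.07 and -0.45, with 5 of 23 and 0 of 18 above 0. Against 4 to 6 alone they were 0.24 and 0.14, with 22 of 23 and 15 of 18 above 0.

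Early proximal colon had replication genes at a median of -0.20 log2 units against untreated proximal colon, with 22 of 23 below 0, and mitotic genes at -0.07. In limma 0 of 23 and 0 of 18 were called, 2 and 0 had an unadjusted p under 0.05, and 7.59% of all tested genes were called. CCNE2 fell by 0.58 ± 0.18 (adjusted p = 0.047), from 7.59 to 8.41 in untreated to 7.45, 7.48 and 7.37 in early proximal colon, without overlap. The call lay near the threshold, and in the authors' deposited table the step-up p-value of the same probe set was 0.063. Against untreated proximal 1 to 3 alone the early replication and mitotic medians were -0.36 and -0.35, with 0 of 23 and 0 of 18 above 0. Against 4 to 6 alone they were -0.07 and 0.22, with 9 of 23 and 14 of 18 above 0. Late against early proximal colon gave 0 calls in limma and 4 replication and 0 mitotic genes with an unadjusted p under 0.05, beside 0.666% of all tested genes called. Replication genes were above 0 in 23 of 23, with a median of 0.25, and mitotic genes in 6 of 18, with a median of -0.07.

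Untreated distal and proximal colon differed in 2 of the 43 genes, both lower in the distal colon, beside 5.53% of all tested genes called lower. The count lay near that background share. RRM2 stood at -0.64 ± 0.19 log2 units (limma, adjusted p = 0.0307) and RFC2 stood at -0.53 ± 0.15 (adjusted p = 0.029). In both genes the regions overlapped, with RFC2 at 9.48 to 10.80 in distal and 10.42 to 10.79 in proximal arrays. The overlap rested on untreated distal 3, which had the Hox levels of proximal colon and read 10.80 in RFC2 and 12.16 in RRM2. The other untreated distal arrays reached 10.32 and 11.42, below the lowest untreated proximal arrays at 10.42 and 11.45. Without the 2 arrays whose Hox levels went against their label the count was 7, and it was 0 without untreated proximal 2 or 3 or without untreated distal 4, 5 or 6. Early distal and early proximal colon gave 0 calls in limma and 0 with an unadjusted p under 0.05, beside 1.90% of all tested genes called.

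Late distal colon was higher than late proximal colon in 7 of 23 replication and 8 of 18 mitotic genes, beside 19.1% of all tested genes called higher. The medians were 0.27 and 0.52. RFC3 had the largest difference, with 9.67, 8.86, 9.35, 9.41, 9.27 and 9.52 log2 units in late distal and 8.30, 8.64, 8.55 and 8.22 in late proximal colon, which did not overlap. It differed by 0.92 ± 0.17 (limma, adjusted p = 0.00011), and KIF20A by 0.85 ± 0.21 (adjusted p = 0.00234). The count of 15 fell to 4 without late proximal 4, 9 without late proximal 1, 7 without late distal 1 and 2 without late proximal 3 and 4.

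The change from untreated to late colon was itself larger in the distal than in the proximal colon for 12 of the 43 genes by the interaction term, beside 10.9% of all tested genes called higher. They were 7 of 23 replication genes, CCNE1 and 4 of 18 mitotic genes, and all 43 genes had a difference of responses above 0, with medians of 0.55 and 0.59. The largest were GINS1 at 1.32 ± 0.31 log2 units (limma, adjusted p = 0.00415) and CDC6 at 1.24 ± 0.32 (adjusted p = 0.00786). In GINS1 the 2 responses were 1.35 in distal and 0.03 in proximal colon, and in CDC6 1.09 and -0.16. KIF20A, CDK1 and BUB1 had the largest differences of responses among mitotic genes, at 1.00, 0.99 and 0.96. The count was 23 without untreated distal 3, 21 without both arrays whose Hox levels went against their label, and 3 without late proximal 3 and 4. The early response gave 0 calls in limma between the regions, 0 with an unadjusted p under 0.05, and 0% of all tested genes called.

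The untreated arrays were not uniform. Replicates 1 to 3 of both regions lay above replicates 4 to 6 for 11 of 23 replication genes, CCNE1 and 11 of 18 mitotic genes, beside 5.42% of all tested genes called higher. This split was proposed after earlier results of these arrays were known, and the labels give no reason for it, so the counts describe these arrays. The medians were 0.46 for replication and 0.55 for mitotic genes, and -0.026 for all tested genes. POLE had the largest difference, at 1.24 ± 0.13 log2 units (limma, adjusted p = 1.15e-05). In untreated distal colon it read 8.03, 8.48 and 8.40 in replicates 1 to 3 and 6.90, 6.52 and 6.78 in replicates 4 to 6. In untreated proximal colon it read 8.09, 8.29 and 8.22, and then 7.35, 7.06 and 7.45. The sets did not overlap in either region.

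MKI67 followed the same split, at 0.89 ± 0.12 log2 units (limma, adjusted p = 0.000101). It read 11.85, 12.16 and 11.86 in untreated distal 1 to 3 and 10.80, 10.82 and 11.06 in 4 to 6. In proximal colon it read 11.99, 11.74 and 11.66, and then 11.10, 11.03 and 11.09, again without overlap. MCM10, which helps to start the helicase, differed by 0.83, CENPE, a kinetochore motor, by 0.78, and BUB1 by 0.75. RFC3 and MCM4 were the 2 genes with a difference below 0, at -0.10 and -0.04.

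Within the distal colon 17 of the 43 genes were called between the sets, beside 4.09% of all tested genes called higher, with medians of 0.61 and 0.47. The count lay between 8 and 11 when untreated distal 2, 3, 4, 5 or 6 was left out, and was 9 without the 2 arrays whose Hox levels went against their label. Within the proximal colon limma called 0 of the 43 genes, beside 0.0850% of all tested genes called in either direction. There 10 replication genes, 1 cyclin E gene and 13 mitotic genes had an unadjusted p under 0.05, and the medians were 0.29 and 0.60. Genes outside the list gave like counts over both regions: 14 of 36 other replication genes, led by CLSPN and WDHD1, and 30 of 41 other mitosis genes, led by NCAPD2 and CENPF, were higher and none lower. FOXM1 and MYBL2, transcription factors of mitotic genes, were higher by 1.14 ± 0.18 and 0.91 ± 0.16.

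Macrophage markers moved the other way along this split. Over both regions 3 of 8 were called lower in replicates 1 to 3 (CD163, ADGRE1 and MRC1) and 8 of 8 were below 0. Of all 14122 tested genes, 831 were called lower in that comparison. Their mean level was 8.62, 8.08 and 8.84 log2 units in untreated distal 1 to 3 and 9.79, 9.68 and 9.56 in 4 to 6. In untreated proximal colon it was 8.94, 8.90 and 9.19, and then 9.26, 9.18 and 9.26. The neutrophil markers had 1 of 4 called lower (S100A9). T cell markers had 0 of 8 called in limma and 2 at an unadjusted p under 0.05, but 8 of 8 were above 0, with a median of 0.57. Their mean level was 6.34, 6.39 and 7.42 in untreated distal 1 to 3 and 6.02, 5.70 and 5.99 in 4 to 6. In untreated proximal colon it was 6.92, 7.48 and 7.67, and then 7.20, 7.29 and 7.03. Crypt and colonocyte markers gave 0 of 9 calls each in limma, with 3 and 1 at an unadjusted p under 0.05, and epithelial markers 0 of 5, with 0. The part of these cells in the split was not tested.

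**Figure D3:**
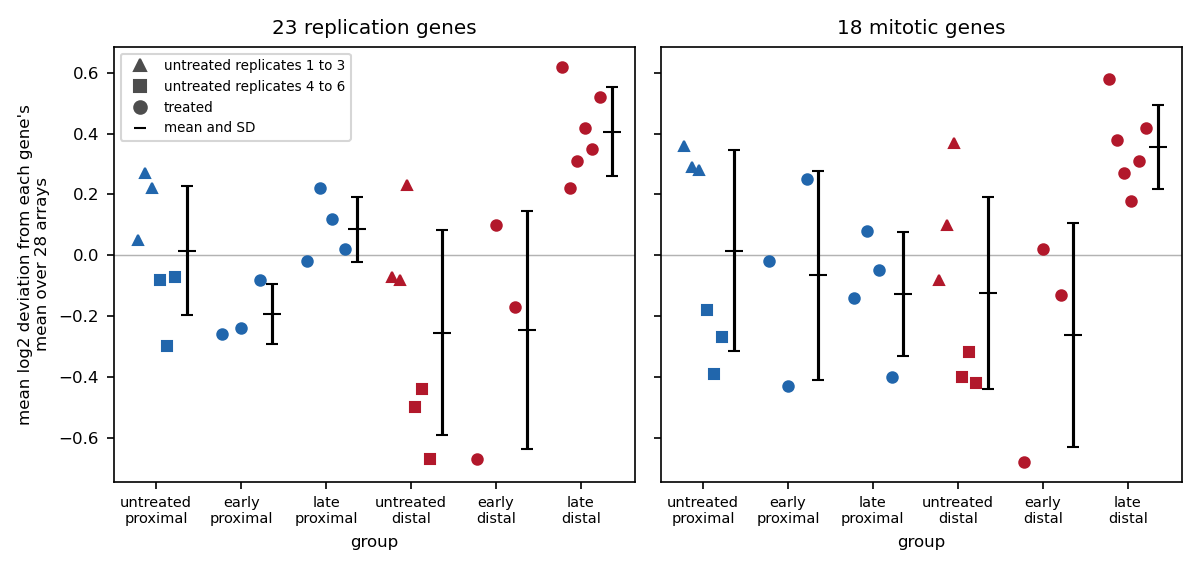
Mean deviation of the 23 replication genes (left) and the 18 mitotic genes (right) from each gene's mean over 28 arrays, in log2 units, for each array, with group mean and SD. Triangles are untreated replicates 1 to 3 and squares 4 to 6. In both panels the squares lie below the triangles of their region, and late distal arrays lie between 0.18 and 0.62.

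The choice of untreated arrays set how many genes were called in late distal colon. Against untreated distal 1 to 3 alone 9 of 23 replication and 2 of 18 mitotic genes were called higher, with medians of 0.29 and 0.21, beside 23.1% of all tested genes. Against 4 to 6 alone 19 and 15 were, with medians of 0.89 and 0.77, beside 24.0% of all tested genes. The 2 mitotic genes of 18 called against replicates 1 to 3 are thus a smaller share than that of all genes. The 11 genes called against replicates 1 to 3 were MCM2, MCM3, MCM7, CDC6, GINS1, PCNA, RRM1, RFC3, CHAF1B, CDK1 and KIF20A. These comparisons share their late arrays, so the 2 values of a gene are given side by side.

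GINS1 differed by 0.92 ± 0.20 log2 units from replicates 1 to 3 (limma, adjusted p = 0.00132) and by 1.78 ± 0.19 from 4 to 6. RFC3 went the other way, at 1.09 ± 0.17 and 0.61 ± 0.17, and CDK1 stood at 0.69 ± 0.22 and 0.96 ± 0.20. POLE stood at 0.32 ± 0.17 (adjusted p = 0.13) and 1.89 ± 0.17, and MCM10 at 0.15 ± 0.17 and 1.26 ± 0.15. MKI67 stood at -0.23 ± 0.16 (adjusted p = 0.249) and 0.84 ± 0.15, so that its sign depended on the untreated arrays chosen. BUB1 stood at 0.36 ± 0.18 and 1.22 ± 0.16, called in the second only. Early distal colon was likewise placed by the controls. Against 1 to 3 its medians were -0.31 and -0.42, with 1 replication gene called lower beside 1.97% of all tested genes. Against 4 to 6 they were 0.22 and 0.14, with 4 replication genes and 1 mitotic gene called higher beside 8.73% of all tested genes.

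**Figure D4:**
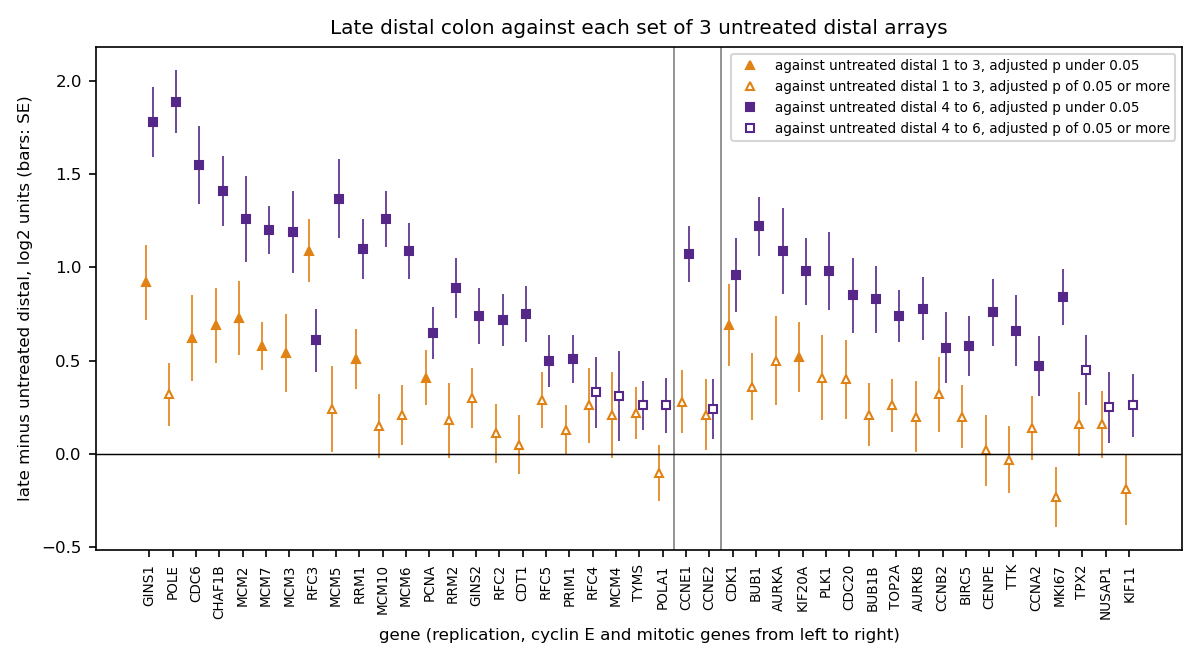
Late distal minus untreated distal log2 difference with its SE for each gene, against untreated distal 1 to 3 (triangles) and 4 to 6 (squares), filled where the adjusted p was under 0.05. Filled triangles mark 9 replication and 2 mitotic genes, and filled squares 19 and 15. RFC3 is a gene whose triangle lies above its square.

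S phase and mitotic genes were compared within each array as the difference of their class means, after each gene was set to 0 at its mean over 28 arrays. This value is given without a test. It ran from -0.31 to 0.19 log2 units in untreated proximal, from -0.33 to 0.19 in early proximal and from 0.12 to 0.42 in late proximal colon. In the distal colon it ran from -0.25 to 0.00 in untreated, from -0.03 to 0.08 in early and from -0.16 to 0.23 in late arrays. All 4 late proximal arrays were above 0. So were untreated proximal 4, 5 and 6, at 0.10, 0.09 and 0.19, while untreated proximal 1, 2 and 3 read -0.31, -0.02 and -0.05. Both class means were highest in late distal colon, at 0.40 ± 0.15 (SD, n = 6) for replication and 0.36 ± 0.14 for mitotic genes, against -0.25 ± 0.34 and -0.12 ± 0.32 in untreated distal colon. The late distal arrays ran from 0.22 to 0.62 and the untreated distal arrays from -0.67 to 0.23 in replication genes, so that the highest untreated array, replicate 3, lay just within the late range. That array had the Hox levels of proximal colon, and the other untreated distal arrays ran from -0.67 to -0.07.

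Calls were also set beside the promoter motifs as a description. Of the replication genes measured, 7 of 8 with an E2F site and 7 of 10 without one were higher in late distal colon, with medians of 0.83 and 0.53 log2 units. Of the mitotic genes, 8 of 11 with a CHR element and 1 of 3 without one were higher. The 43 genes had 84 probe sets, and 29 genes had more than 1. In 24 of these 29 all probe sets were above 0 in late against untreated distal colon. In NUSAP1, RRM1, TOP2A, TTK and TYMS they differed in sign, each time with a dimmer probe set below 0, such as -0.33 beside 0.80 in RRM1. By the authors' deposited table, late distal colon was higher than untreated in 18 of 23 replication, 1 of 2 cyclin E and 11 of 18 mitotic genes at a step-up p-value under 0.05. In the authors' deposited table, the 3 other treatment comparisons had 0 of the 43 genes past that threshold.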

How the data were processed

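Total RNA from proximal and distal colon was amplified with NuGEN Ovation kits, biotin-labelled and hybridised, per the labels' protocols. The authors deposited log2 levels made with RMA, and Partek 6.5 is also named, per the submitters' processing notes. The authors' deposited table gives group means in log2 units, a signed fold of untreated over treated (a score), and a p-value and step-up p-value. Values of the 6 early arrays carry more decimals (57.5% to 58.9% of values of at least 10 have over 4) than any other array (0.0%). The labels do not say why, and this cannot be told apart from the early state.

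Of 45101 probe sets, 26933 are in that table. A mouse symbol matched 19920, a synonym 1619, and 2294 kept their name. Those with several genes (380) or none (2720) were left out, which gave 14122 genes. Limma 3.58.1 in R 4.3.3 fitted 6 group means to 28 arrays (22 residual and 3.78 prior degrees of freedom), or 8 where untreated arrays were split. Genes were called at a Benjamini-Hochberg adjusted p under 0.05. SE is the moderated standard error. Members, lists, splits and the rule for naming genes (any member, the 3 largest called genes of another list, any marker beside a result) were chosen with earlier results of these data known. Alternatives were other probe set, centring, weight, filter, block and array choices. The fit was tested on simulated data. Promoters are from RefSeq.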

Additional observations from a re-analysis of the deposited data

Results flagged for a closer look

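In the 4 groups of 4 to 10 arrays, 43 genes and the 2 class means gave 180 tests by Dixon's criterion, and 9 of them, each for a gene, held an array set apart from the rest of its group, which chance gives in about 5% of groups. The count of 9 is no more than that chance share, so the arrays are listed only as a description. In untreated distal 3, whose Hox levels are those of proximal colon, 5 genes stood above their group: RFC4 at 9.63, RFC5 at 9.05, CDK1 at 10.55, CCNA2 at 11.43 and CCNB2 at 10.25 log2 units. In late distal 1 BUB1 at 9.29 and KIF20A at 9.45 stood above their group. MKI67 in late distal 4, at 11.40, and BIRC5 in late proximal 4, at 11.13, stood below theirs.

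The late response differed between the distal and the proximal colon, by limma's interaction term, in 12 genes. On the log2 scale the distal response was larger by 1.32 in GINS1, 1.24 in CDC6, 1.00 in KIF20A, 0.99 in CDK1, 0.98 in CHAF1B and 0.96 in BUB1. It was larger by 0.89 in RFC3, 0.86 in MCM2, 0.80 in CCNE1, 0.72 in MCM7, 0.72 in CCNB2 and 0.51 in PCNA. The adjusted p lay between 0.00415 and 0.0401.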

How the results depend on the processing

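Counts are of genes called. With array weights the early distal replication count went from 0 to 4, mitotic late against early distal from 10 to 5, early proximal replication from 0 to 2, late against early proximal replication from 0 to 3, untreated regions from 2 to 23, early response from 0 to 1, late response from 12 to 34, the untreated split over both regions to 18 replication and 18 mitotic, and the proximal split from 0 to 34. With each array centred on its median, late distal mitotic went from 11 to 7 and early proximal replication from 0 to 2. With untreated replicates 1 to 3 alone, early distal replication was 1 (lower), late distal 9 and 2, and untreated regions 0. With 4 to 6 alone, early distal was 4 and 1, early proximal mitotic 1 and untreated regions 6. With only the groups compared, untreated regions gave 0, late regions 25 and the distal split 3. Without the 2 arrays against their Hox label, untreated regions gave 7, late response 21 and the distal split 9. Without the arrays with pancreatic transcripts (chosen after seeing the data), late distal mitotic was 6, late against early distal mitotic 6, late regions 8 and the mitotic split 7. Without late proximal 3 and 4 (also chosen after seeing the data), late regions gave 2 and late response 3. The causes were not tested.

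Leaving out 1 array at a time gave 15 to 20 replication and 7 to 12 mitotic genes for late distal, 3 to 18 and 0 to 11 for late against early distal, 0 to 2 for early proximal replication, 0 to 7 for untreated regions, 4 to 19 for late regions and 8 to 23 for late response. The split gave 11 to 14 and 9 to 15 over both regions, 8 to 21 in distal and 0 to 2 in proximal colon. All other counts stayed at 0.

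The replicate block (consensus correlation 0.185) moved untreated regions to 6 and late response to 19. The labels do not say whether same-numbered arrays of the 2 regions share a mouse. Over the 13 same-numbered pairs the correlation of deviations ran from -0.233 to 0.691, and 4 pairs were over 0.1. With so few arrays in a group, these correlations cannot settle the pairing either way. Of 4786 alternative values of the 128 called results of single genes, 4367 kept direction and call, 418 lost the call and 1 turned sign: TYMS, late against early distal, at -0.02 with the mean of all its probe sets. The number of arrays limits all of these.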

Other observations

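Of 23 cell cycle regulators, 7 were higher and 5 lower in late than in untreated distal colon, beside 26.0% and 22.5% of all tested genes, so the counts lie near the background. Their median was 0.03 log2 units. CDKN1C, which encodes the CDK inhibitor p57, had the largest rise, at 2.01 ± 0.21 log2 units (limma, adjusted p = 3.28e-08). CDK4, the kinase that acts with D cyclins in G1 phase, rose by 1.16 ± 0.13 (adjusted p = 8.42e-08), and FOXM1 by 0.78 ± 0.29. The 5 lower genes, named after their values were seen, were the pocket protein genes RB1 (-0.54 ± 0.12), RBL2 (-0.44 ± 0.09) and RBL1 (-0.31 ± 0.13) and the CDK inhibitor genes CDKN1B (-0.51 ± 0.12) and CDKN1A (-0.38 ± 0.13). By the interaction term the late response was larger in the distal colon for CDKN1C, at 1.66 ± 0.31, and CDK4, at 1.07 ± 0.19. In untreated colon E2F2, a factor that binds E2F sites, was lower in the distal region by limma, at -0.91 ± 0.25 (adjusted p = 0.0205). Both E2F2 and FOXM1 also differed within untreated distal colon, where replicates 1 to 3 were higher than 4 to 6. By limma the differences were 1.22 ± 0.25 (adjusted p = 0.00598) for E2F2 and 1.21 ± 0.26 (adjusted p = 0.00707) for FOXM1.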
